A study of Mus musculus with 12 samples.

Results

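Immediate-early and activation-response genes were followed in mouse spleen, in Treg (regulatory T cells, which hold immune responses in check) and in Tconv (conventional CD4 T cells). Membership follows a rule on gene name and depth: symbols that begin with Fos, Jun, Egr, Nr4a, Ier, Dusp, Atf, Klf, Btg, Nfkbi or Zfp36, with at least 120 estimated counts summed over 12 libraries. Of 66 symbols with such a name, 55 reached that minimum, among 11486 genes with a count in at least 1 library, and all 55 passed the low-count filter and were tested among 9495 genes. The 55 comprised 3 AP-1 subunits, 2 Egr factors, 2 Nr4a receptors, 4 Ier genes, 16 dual-specificity phosphatases, 8 Atf genes, 9 Klf factors, 2 Btg genes, 4 Nfkbi genes, 2 mRNA decay factors of the Zfp36 family and 3 other zinc finger genes. Meeting the rule by symbol does not make a gene immediate-early or induced by activation. Ier3ip1, Atf7ip, Nfkbil1, Zfp365, Zfp366 and Zfp369 are examples that are not known as immediate-early genes. The other members were not sorted by this property. The rule uses no difference between groups, but it was chosen with earlier results of these data known. Leaving out the libraries of 1 group or 1 cell type kept all members above the minimum except Klf15 and Dusp8. Klf15 had 39 counts without Treg. Dusp8 had 90.6 counts without labelled Treg, 64.4 without all Treg and 104 without all Tconv. Several well-known genes of these families, such as Junb, Nr4a1 and Nfkbia, were not analysed here.

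Immediate-early genes are transcribed within minutes of a signal from transcription factors that the cell already holds, without new protein synthesis. In T cells the signal is usually antigen receptor engagement, which acts through MAP kinases, calcium and NF-kappaB. The products then shape the later response. Fos and Jun pair to form the AP-1 factor, and Egr and Nr4a proteins are transcription factors induced by receptor signals. Several Dusp phosphatases, though not all of them, switch off MAP kinases. Nfkbi proteins restrain or redirect NF-kappaB, and Zfp36 proteins send short-lived mRNAs to decay. Klf2 stands on the other side, being high in resting T cells, where it maintains S1pr1, the receptor of tissue exit. Many of these transcripts are also known to be induced while tissue is dissociated and cells are sorted.

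Promoters of 4 members were read from RefSeq (build GRCm38.p6) because Nr4a2, Nr4a3 and Dusp1 are textbook targets of CREB, the factor that links calcium and cyclic AMP signals to transcription, while Dusp2 is the second marker of the set. Each run is the 250 bases before the transcription start, 5′ to 3′ on the gene's own strand. Capitals mark the letters TGACG, the core of the cyclic AMP response element (CRE), on the printed strand, or CGTCA where the match lies on the other strand; overlapping matches appear as 1 longer run. The windows were chr2:57124004-57124253 (minus strand) for Nr4a2, chr4:48045055-48045304 (plus) for Nr4a3, chr17:26508473-26508722 (minus) for Dusp1 and chr2:127335909-127336158 (plus) for Dusp2.
Nr4a2: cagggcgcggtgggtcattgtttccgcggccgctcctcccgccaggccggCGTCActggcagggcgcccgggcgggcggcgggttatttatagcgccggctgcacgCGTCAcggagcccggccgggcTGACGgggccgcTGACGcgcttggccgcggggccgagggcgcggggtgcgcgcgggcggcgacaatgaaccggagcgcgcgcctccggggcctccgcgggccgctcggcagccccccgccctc
Nr4a3: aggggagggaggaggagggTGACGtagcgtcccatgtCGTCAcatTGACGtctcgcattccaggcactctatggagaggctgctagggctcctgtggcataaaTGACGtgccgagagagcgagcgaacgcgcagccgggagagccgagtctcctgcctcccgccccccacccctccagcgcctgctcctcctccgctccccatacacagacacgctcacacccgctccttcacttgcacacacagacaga
Dusp1: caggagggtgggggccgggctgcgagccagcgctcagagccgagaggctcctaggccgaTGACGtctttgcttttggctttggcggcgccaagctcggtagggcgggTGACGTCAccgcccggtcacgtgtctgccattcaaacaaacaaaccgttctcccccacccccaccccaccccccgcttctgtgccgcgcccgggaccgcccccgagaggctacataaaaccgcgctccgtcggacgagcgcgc
Dusp2: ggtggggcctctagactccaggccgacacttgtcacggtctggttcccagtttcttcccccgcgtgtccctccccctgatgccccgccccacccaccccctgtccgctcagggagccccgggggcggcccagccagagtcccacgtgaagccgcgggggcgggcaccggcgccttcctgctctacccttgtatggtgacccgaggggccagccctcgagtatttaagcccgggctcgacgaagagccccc
The CRE core matched 4 times in Nr4a2, 4 times in Nr4a3 and 3 times in Dusp1, where 2 of the matches overlap in a full CRE. It matched 0 times in the Dusp2 window, which says only that these letters are not in this window.

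A promoter window was found for 44 of the 55 members. With both strands read over the 250 bases, the full CRE (TGACGTCA) occurred in 4 members, or 9.1%, beside 1.77% of 27025 genes with a window. Its core TGACG, which every full CRE also holds, occurred in 17 members (38.6%, beside 19.79% of all genes). The GC box (GGGCGG) occurred in 39 members (88.6%, beside 35.36%). The CArG box bound by serum response factor occurred in 3 members (6.8%, beside 1.62%), and an NF-kappaB motif in 6 (13.6%, beside 4.46%). The AP-1 site (TGANTCA) occurred in 0 members, beside 7.82% of all genes, and the TATA box (TATAAA) in 3 (6.8%, beside 14.33%). Members had to reach a count minimum, and the 27025 genes did not, so these shares are not from like sets of genes. A motif in any window of a gene was counted, and 6 members had more than 1 window. These matches describe letters and were not tested as sites of binding.

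The study compared 3 kinds of C57BL/6 mice: wild-type animals that were young (2 months) or aged (over 18 months), and Dcaf1-deficient animals of 2 months, as their labels name them, which are called labelled here. From each, CD4+CD25+ Treg and CD4+ Tconv were sorted by flow cytometry and sequenced as poly(A)-selected RNA, giving 6 groups of 2 libraries. The allele and the Cre driver of the labelled mice are not given in the labels, and neither is whether the 2 libraries of a group came from separate mice, so p-values measure only the spread between these libraries. Levels are CPM, the usual scaling of counts to a common library size, and fold changes are log2 values ± SE from 1 edgeR quasi-likelihood fit over all 12 libraries, adjusted by Benjamini-Hochberg over 9495 genes. A member is said to rise or fall where its adjusted p was under 0.05.

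Several facts of the libraries touch every comparison. Totals were 18358477 to 26852448 estimated counts. The 9 T cell markers present summed to 7004 and 4823 CPM in young, 3868 and 7634 CPM in aged and 3553 and 3143 CPM in labelled Treg, and to 7822 to 9844 CPM in Tconv. The 5 Treg markers summed to 1993 to 7488 CPM in Treg and 350.2 to 427 CPM in young and labelled Tconv, but to 2177 and 3176 CPM in aged Tconv. The 8 macrophage markers present, none of them at 0 in any library, summed, in Treg, to 123.5 and 3460 CPM (young), 8850 and 574 CPM (aged) and 10520 and 12500 CPM (labelled), and in Tconv to 18.2 to 934 CPM. Aged Treg 1 correlated with labelled Treg 1 at 0.993 over log2 CPM of all genes, and with aged Treg 2 at 0.914. Dcaf1 transcript (Vprbp in the table) had 144 and 128 CPM in young against 102 and 101 CPM in labelled Treg, and 147 and 144 CPM in young against 132 and 132 CPM in labelled Tconv; gene-level counts cannot reveal loss of an exon. Xist, the transcript of the inactive X chromosome, was at 1263 to 2018 CPM in aged Treg 2, labelled Treg 2, aged Tconv 2 and both labelled Tconv libraries and at 1.37 to 2.94 CPM in the others. By Xist, the 2 libraries of aged Treg, of labelled Treg and of aged Tconv differed in sex, so no such pair came from 1 mouse. Both labelled Tconv libraries were high and both young Tconv libraries low, so label and sex cannot be told apart there. The tag L3 in the sample titles, whose meaning is not stated, was carried by aged Treg 2 and aged Tconv 2 alone. These were also the aged libraries of high Xist, so within the aged groups tag and sex cannot be told apart. Every young library had low Xist. In bulk RNA, fewer cells of a type and less RNA per cell cannot be told apart.

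Expression of the set was dominated by a few genes. Per kilobase of exon, averaged over the 12 libraries, Zfp36l2, an mRNA decay factor that holds lymphocytes in quiescence, stood highest at 415 CPM per kb. It was followed by Fos at 271, Zfp36 at 270, Dusp1 at 228 and Jun at 221 CPM per kb, then Btg2, an antiproliferative gene, at 162, Dusp2 at 158 and Klf2 at 149. Nr4a2 stood at 6.40 CPM per kb and Dusp8, at 0.126, was lowest. The highest library exceeded the lowest by under 2-fold for 13 members, and by 10-fold or more, or from a level of 0, for 12. The highest level was in aged Tconv 2 for 11 members, in young Tconv 1 for 10, and in aged Tconv 1 and aged Treg 2 for 8 each.

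**Figure D1:**
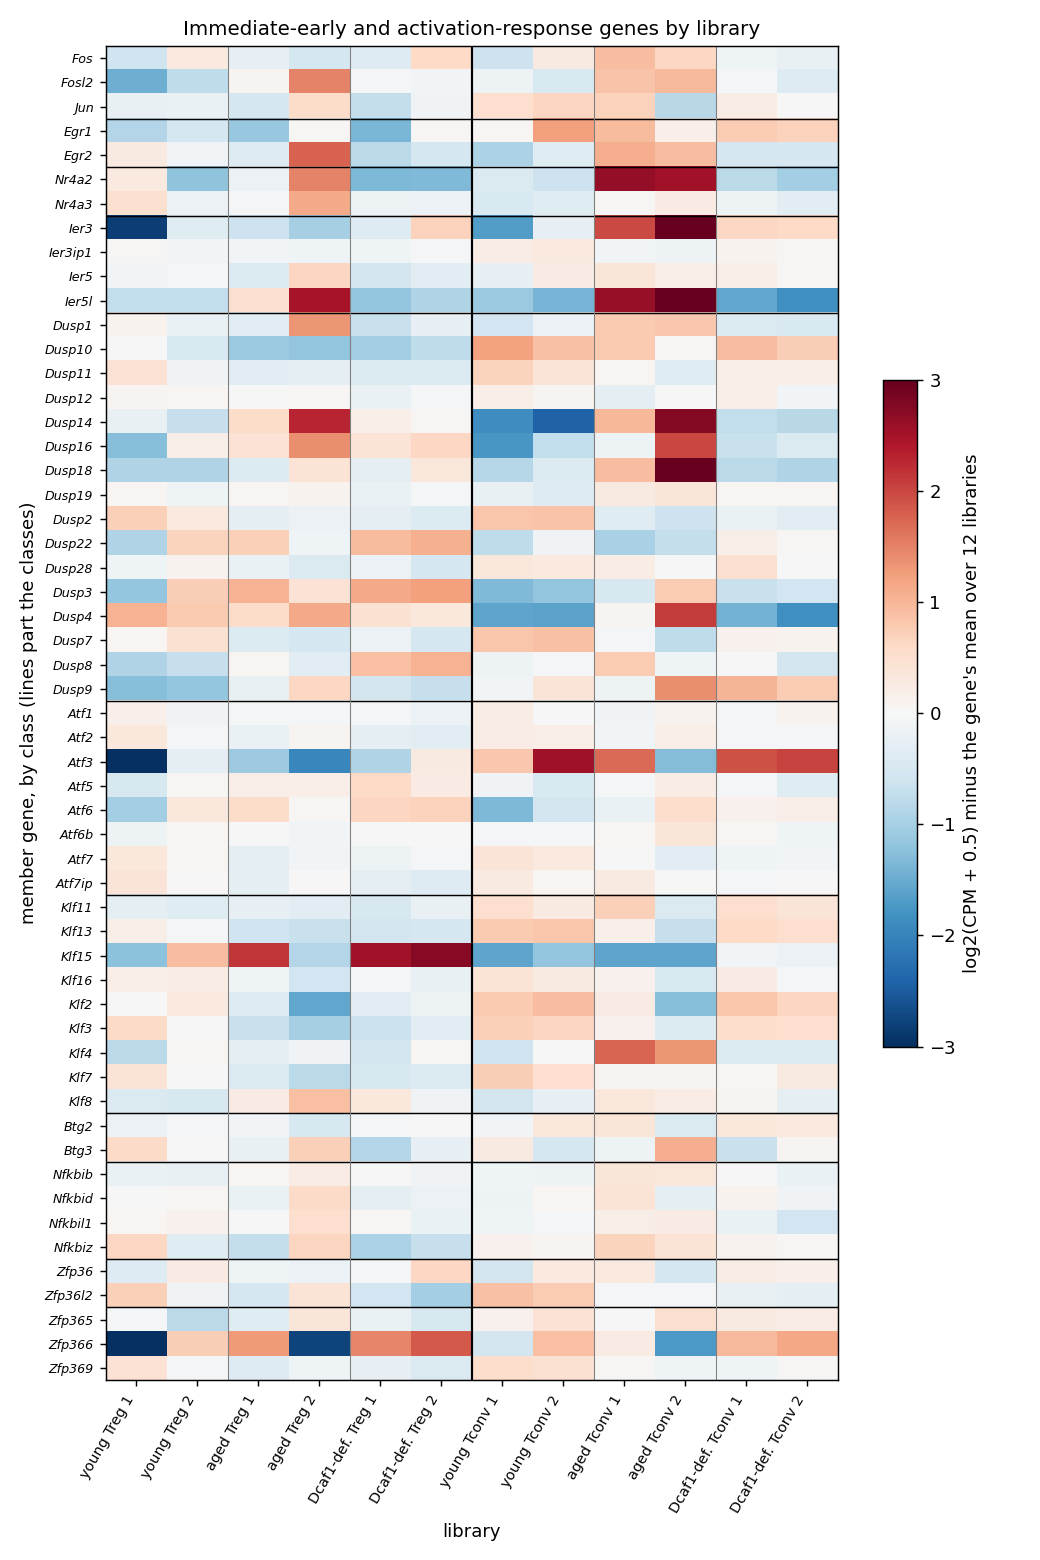
Level of each of the 55 members in each of the 12 libraries, as log2(CPM + 0.5) minus the mean of the gene over all libraries (colour, capped at -3 and 3), with members ordered by class. Nr4a2, Ier3, Ier5l, Dusp14 and Dusp18 are red in the aged Tconv columns, and Dusp2 is above its mean in the young libraries of both cell types.

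With age, members moved both ways in Tconv. Of the 55 members, 7 rose and 3 fell in aged against young Tconv, or 18.2%, beside 8.86% of all genes tested (6.38% higher and 2.47% lower). Those that rose were Ier5l, Dusp14, Dusp18, Nr4a2, Dusp4, Klf4 and Nfkbib, and those that fell were Dusp2, Dusp7 and Klf13. Both aged libraries lay above both young ones for 22 members (40%, beside 29.9% of all genes) and below them for 15 (27.3%, beside 29.1%). The median log2 fold change over the 55 was 0.01, beside -0.00 over all genes. The calls depended on which libraries were fitted. All were lost without either young Tconv library, and most were lost without aged Tconv 2 or without a labelled library. When the 4 Tconv libraries were fitted alone, 0 of 53 members were called, beside 0.0345% of all genes. With a term for the title tag 4 were called (Dusp2, Dusp4, Dusp14 and Ier5l), beside 4.6% of all genes. The DESeq2 Wald test called 22, including all 10, beside 21.5% of all genes. Without aged Tconv 1 more members were called, again including all 10, and so were more of all genes. Of the 5 Treg markers, Foxp3, Ikzf2 and Ctla4 were also called higher in aged Tconv. Ikzf4 was higher without being called. Il2ra did not share this order, at 43.1 and 29.7 CPM in aged against 31.8 and 63.2 CPM in young Tconv. The part of Treg transcripts in these calls was not tested.

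**Figure D2:**
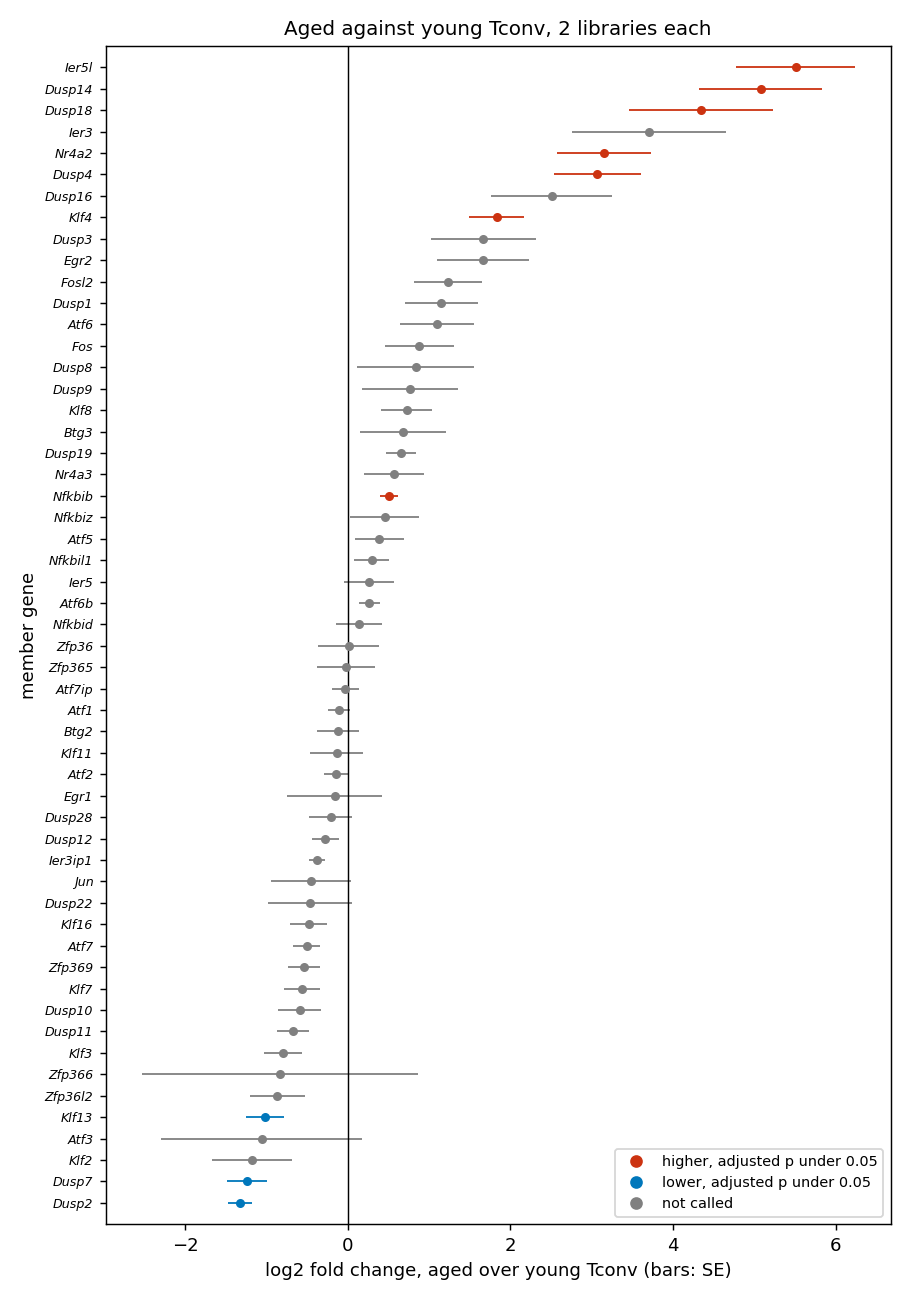
Log2 fold change of aged over young Tconv (x axis) with its SE (bars) for 54 members, ordered by size; Klf15 has no SE and is left out. The 7 members in red range from Nfkbib at 0.50 to Ier5l at 5.51, and the 3 in blue from Dusp2 at -1.33 to Klf13 at -1.02.

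Among the transcription factors, Nr4a2 gave the clearest separation. Nr4a2 (chr2:57106830-57124003, minus strand, GENCODE M21), an orphan nuclear receptor induced by antigen receptor signals, was at 95.2 and 88.3 CPM in aged Tconv and at 11.03 and 9.57 CPM in young Tconv. Both aged libraries were thus far above the young ones, and close to each other. The log2 fold change was 3.15 (SE 0.58, edgeR adjusted p 0.028). In aged Treg, Nr4a2 was at 13.3 and 42.9 CPM against 18.5 and 6.23 CPM in young Treg, so that the groups overlapped (log2 fold 1.19 ± 0.58 SE, edgeR adjusted p 0.336). Only aged Treg 2, which carries the L3 tag and has high Xist, was above both young Treg libraries. Nr4a3, its close relative, was at 21 and 24.1 CPM in aged and 14.6 and 15.8 CPM in young Tconv, a separation without overlap that missed the threshold (log2 fold 0.57 ± 0.37 SE, edgeR adjusted p 0.352).

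The AP-1 subunits and Egr factors, the best known immediate-early genes, gave 0 calls with age. Fos was at 1128 and 921 CPM in aged Tconv and 389 and 724 CPM in young Tconv, and Fosl2 at 62.2 and 67.6 against 30.7 and 24.5 CPM. Egr2, which restrains T cell activation, was at 92.4 and 82.7 CPM in aged and 22.01 and 33.3 CPM in young Tconv. For all 3 genes the aged libraries lay above the young ones, with log2 fold changes of 0.88 (SE 0.42, edgeR adjusted p 0.216), 1.23 (SE 0.42, edgeR adjusted p 0.107) and 1.66 (SE 0.56, edgeR adjusted p 0.106). Jun did not share this order: it was at 1071 CPM in aged Tconv 1 and 374 CPM in aged Tconv 2, on either side of 936 and 1040 CPM in the young. Egr1 was at 495 and 282 CPM in aged Tconv and 267 and 601 CPM in young Tconv, with overlap. In Treg, Fosl2 was at 36.1 and 96.4 CPM in the aged and 12.01 and 19.9 CPM in the young, again without overlap (log2 fold 2.05 ± 0.42 SE, edgeR adjusted p 0.126).

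Ier5l and Ier3 were low in young cells. Ier5l, a relative of Ier5, was at 0.657 and 0.44 CPM in young Tconv and 14.7 and 35.9 CPM in aged Tconv, a log2 fold change of 5.51 (SE 0.73, edgeR adjusted p 0.0177). Without aged Tconv 2 it was 4.72. In Treg, Ier5l was at 0.989 and 0.995 CPM in the young and 2.99 and 13.2 CPM in the aged (log2 fold 3.02 ± 0.70 SE, edgeR adjusted p 0.151). The aged libraries were higher in both cell types, with replicate 2, of the L3 tag and high Xist, the higher in each. Ier3, a stress-induced gene linked to cell survival, was at 1.74 and 5.55 CPM in young against 27.99 and 66.96 CPM in aged Tconv, and missed the threshold (log2 fold 3.70 ± 0.95 SE, edgeR adjusted p 0.0654). Ier5, the most abundant Ier gene by CPM, was at 268 and 375.5 CPM in young against 407 and 366 CPM in aged Tconv, with overlap.

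The 16 dual-specificity phosphatases split, with 3 higher and 2 lower in aged Tconv. Dusp4, which acts on ERK and JNK, was at 9.15 and 9.07 CPM in young Tconv and 30.2 and 122.9 CPM in aged Tconv (log2 fold 3.07 ± 0.54 SE, edgeR adjusted p 0.0251). The log2 fold change was 1.73 without aged Tconv 2 and 3.75 without aged Tconv 1. In Treg, Dusp4 was at 59.6 and 49.9 CPM in the young and 42.1 and 62.95 CPM in the aged, with overlap. The summed Treg markers moved with Dusp4 in Tconv, from 350.2 and 427 CPM in the young to 2177 and 3176 CPM in the aged. Among these markers, Il2ra overlapped between young and aged Tconv. The part of the Treg markers in the result was not tested.

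Dusp14, a phosphatase that dampens T cell receptor signalling, was at 0.798 and 0.385 CPM in young against 8.94 and 31.7 CPM in aged Tconv (log2 fold 5.08 ± 0.76 SE, edgeR adjusted p 0.0209). Dusp18 was at 0.516 and 0.88 CPM in young against 2.999 and 25.4 CPM in aged Tconv (log2 fold 4.34 ± 0.89 SE, edgeR adjusted p 0.0392). Without aged Tconv 2 the log2 fold changes were 3.90 for Dusp14 and 2.10 for Dusp18, and without aged Tconv 1 they were 5.72 and 5.18. Without young Tconv 1, that of Dusp14 was 5.71. Dusp16, which acts on JNK, was at 7.27 and 15.2 CPM in young against 22.9 and 105 CPM in aged Tconv and was not called (log2 fold 2.51 ± 0.75 SE, edgeR adjusted p 0.0835). Its log2 fold change was 1.02 without aged Tconv 2, 3.22 without aged Tconv 1 and 3.13 without young Tconv 2. Dusp1, the most abundant phosphatase of the set per kilobase, was at 460.5 and 607 CPM in young against 1172 and 1197 CPM in aged Tconv (log2 fold 1.15 ± 0.45 SE, edgeR adjusted p 0.142). In aged Treg, Dusp1 was at 543 and 1720 CPM. Only the library of the L3 tag and high Xist lay above the 728 and 597 CPM of the young.

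Dusp2 and Dusp7 went the other way. Dusp2 (chr2:127336159-127338376, plus strand), an inducible nuclear phosphatase of MAP kinases, was at 528 and 533 CPM in young Tconv and 229 and 193 CPM in aged Tconv. Its log2 fold change of -1.33 (SE 0.15, edgeR adjusted p 0.0126) had the smallest adjusted p of the set in this comparison. In Treg it was at 483 and 364 CPM in the young and 244 and 262 CPM in the aged (log2 fold -0.74 ± 0.15 SE, edgeR adjusted p 0.126). Every aged library was thus below every young library of its cell type. Dusp7, a cytosolic phosphatase of ERK, was at 78.8 and 82.1 CPM in young against 42.4 and 25.8 CPM in aged Tconv (log2 fold -1.24 ± 0.24 SE, edgeR adjusted p 0.0276). In Treg it was at 46.4 and 60.8 CPM in the young and 33.5 and 30.6 CPM in the aged (log2 fold -0.74 ± 0.24 SE, edgeR adjusted p 0.197).

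**Figure D3:**
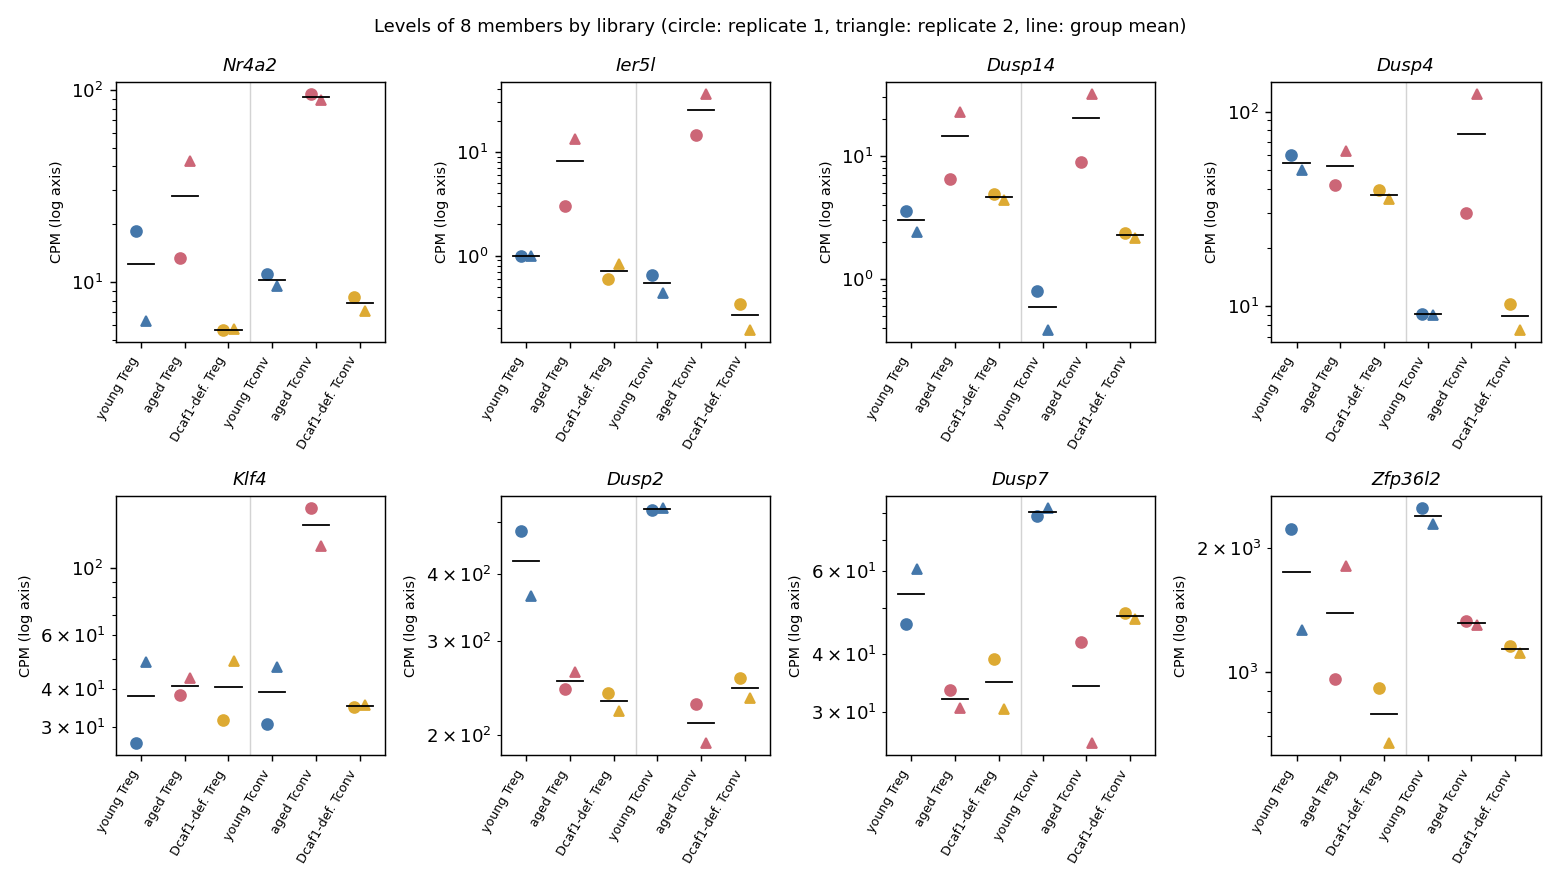
CPM (log axis) of 8 members in each of the 6 groups, with a circle for replicate 1, a triangle for replicate 2 and a line for the group mean. Nr4a2 and Klf4 stand apart in aged Tconv, and Dusp2 is highest in the young libraries of both cell types and between 193 and 262 CPM in all others.

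Of the 9 Klf factors, 1 rose and 1 fell in aged Tconv. Klf4, a regulator of T cell quiescence, was at 30.6 and 47.1 CPM in young against 158 and 118 CPM in aged Tconv (log2 fold 1.83 ± 0.34 SE, edgeR adjusted p 0.0266), while in Treg it was at 26.4 and 49.03 CPM in the young and 38.05 and 43.4 CPM in the aged. Klf13 was at 692 and 718 CPM in young against 449 and 247 CPM in aged Tconv (log2 fold -1.02 ± 0.24 SE, edgeR adjusted p 0.0423), and the log2 fold change was -0.65 without aged Tconv 2. Klf2 was at 416 and 463 CPM in young against 289 CPM in aged Tconv 1, and aged Tconv 2 was lower still; the groups did not overlap, but the gene was not called (log2 fold -1.18 ± 0.49 SE, edgeR adjusted p 0.168). Its log2 fold change was -0.61 without aged Tconv 2 and -2.14 without aged Tconv 1. Its known target S1pr1 had the same order, at 742 and 717 CPM in young against 399 and 147.5 CPM in aged Tconv, and was not called (edgeR adjusted p 0.169). In Treg, Klf2 was at 241 and 296 CPM in the young and 185.5 and 82.2 CPM in the aged (log2 fold -1.004 ± 0.49 SE, edgeR adjusted p 0.333), and Klf3 at 272 and 181 against 114 and 91.2 CPM (log2 fold -1.14 ± 0.24 SE, edgeR adjusted p 0.126).

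In the remaining classes 1 member, Nfkbib, was called with age in Tconv. Nfkbib, which holds NF-kappaB in the cytoplasm, was at 49 and 48.4 CPM in young against 69.5 and 68.6 CPM in aged Tconv, a small change with close replicates (log2 fold 0.50 ± 0.11 SE, edgeR adjusted p 0.0386). Nfkbiz, the Nfkbi gene of highest CPM and a nuclear cofactor of NF-kappaB, was at 309.7 and 301.5 CPM in young against 455 and 380.5 CPM in aged Tconv and was not called. Zfp36l2 was at 2513 and 2290 CPM in young against 1334 and 1300 CPM in aged Tconv, without overlap (log2 fold -0.87 ± 0.34 SE, edgeR adjusted p 0.146). Zfp36, its relative that targets cytokine mRNAs, was at 616.5 and 1111 CPM in young against 1106 and 634.5 CPM in aged Tconv, with overlap, and Btg2 at 412.5 and 551 against 561 and 324 CPM. Of the 8 Atf genes, 0 were called. Zfp369, highest of the other zinc finger genes, was at 46.1 and 43.7 CPM in young against 32.7 and 29.1 CPM in aged Tconv, without overlap and not called. Atf7ip, highest of them by CPM, was at 284.5 and 243 CPM in young against 282 and 234.5 CPM in aged Tconv.

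In aged against young Treg, 0 of the 55 members and 0% of all genes were called by edgeR, while 17 members (30.9%, beside 17.9% of all genes) had an unadjusted p under 0.05. DESeq2 called 10 of 55 members, beside 7.91% of all genes. The edgeR fit also called members without aged Treg 1 (Dusp1, Egr2, Fosl2 and Ier5l) and without young Treg 2 and aged Treg 1. It called Klf13 without either aged Tconv library. In these fits some of all genes were called as well. Both aged libraries lay above both young ones for 11 members (20%, beside 20.2%) and below them for 13 (23.6%, beside 22.4%). The difference between the age effects of Treg and Tconv was tested directly, and 0 members passed (0% of all genes), with 7 at an unadjusted p under 0.05 (12.7%, beside 6.48%). Dusp4 had the smallest adjusted p of them, with a log2 difference of -3.13 (SE 0.76, edgeR adjusted p 0.447). It passed in DESeq2 and without aged Tconv 1. The difference was -1.97 (SE 0.82, edgeR adjusted p 0.753) for Nr4a2, -1.72 (SE 0.49, edgeR adjusted p 0.525) for Klf4 and 0.59 (SE 0.21, edgeR adjusted p 0.652) for Dusp2. No member was therefore shown to respond to age differently in the 2 cell types.

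Among members that differed between Treg and Tconv, most were lower in Treg. Over all 6 Treg against all 6 Tconv libraries, 3 members were higher and 8 lower, or 20%, beside 22.5% of all genes (11.5% higher and 11% lower). Those higher in Treg were Dusp3, Dusp4 and Klf15, and those lower were Dusp9, Dusp10, Egr1, Atf3, Klf3, Klf7, Klf11 and Klf13. The share is close to that of all genes. Klf15 met the count minimum only through Treg, so its call had to be in this direction and is counted as a description. Over the same libraries all 8 macrophage markers, 4 of 5 B cell markers and 4 of 6 neutrophil markers were higher in Treg, and 5 of 9 T cell markers lower; their part in these calls was not tested. All 6 Treg libraries lay below all 6 Tconv libraries for 2 members, Dusp10 and Egr1 (3.64%, beside 2.3%), and above them for 0 (beside 1.89%). The count fell most without either labelled Tconv, young Tconv or labelled Treg library and without aged Tconv 1, and the count of all genes fell there too. With a term for the title tag it fell to 1, beside 2.35% of all genes. Dusp10 was called in each of these fits. Without both L3 libraries more members were called, and so were more of all genes.

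Dusp10, which acts on JNK and p38, was in Treg at 64.2 and 46.2 CPM (young), 29.3 and 28.1 CPM (aged) and 30.9 and 37.8 CPM (labelled). In Tconv its levels were 148 and 118 CPM (young), 111 and 65.4 CPM (aged) and 122.5 and 107 CPM (labelled). Every Tconv library was above every Treg library, though aged Tconv 2 at 65.4 CPM came close to young Treg 1 at 64.2. The log2 difference was -1.54 (SE 0.15, edgeR adjusted p 0.00212). Within the young groups alone it was -1.27 (SE 0.27, edgeR adjusted p 0.0793). Both aged Treg libraries were below both young ones, with a log2 fold change of -0.94 (SE 0.27, edgeR adjusted p 0.169).

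Egr1, the early growth response gene of highest level, ranged from 97.7 to 261 CPM in Treg and from 267 to 601 CPM in Tconv (log2 difference -1.25 ± 0.34 SE, edgeR adjusted p 0.0369). Atf3, a stress-induced repressor, was in Treg at 1.13 and 17.1 CPM (young), 9.502 and 4.97 CPM (aged) and 11.04 and 25.3 CPM (labelled). In Tconv its levels were 36.9 and 124 CPM (young), 69.3 and 8.13 CPM (aged) and 80.2 and 86.98 CPM (labelled), a log2 difference of -2.59 (SE 0.72, edgeR adjusted p 0.0446). Aged Tconv 2 lay among the Treg values. The log2 difference was -1.84 without aged Tconv 1 and -3.59 without young Treg 2.

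The Klf factors Klf3, Klf7, Klf11 and Klf13 were also lower in Treg. Klf13, which drives the chemokine Ccl5, ranged from 250.5 to 456 CPM in Treg and from 247 to 718 CPM in Tconv (log2 difference -0.75 ± 0.14 SE, edgeR adjusted p 0.012). Klf3 ranged from 91.2 to 272 CPM in Treg and from 137 to 299 CPM in Tconv (log2 difference -0.69 ± 0.14 SE, edgeR adjusted p 0.015). Klf7 differed by -0.59 (SE 0.13, edgeR adjusted p 0.0196) and Klf11 by -0.70 (SE 0.19, edgeR adjusted p 0.0357), or -0.46 without aged Tconv 1. Aged Tconv 2 was the lowest Tconv library for Klf3, Klf11 and Klf13. Dusp9 was low throughout, at 0.565 to 3.45 CPM in Treg and 1.83 to 6.27 CPM in Tconv (log2 difference -1.50 ± 0.35 SE, edgeR adjusted p 0.0238).

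**Figure D4:**
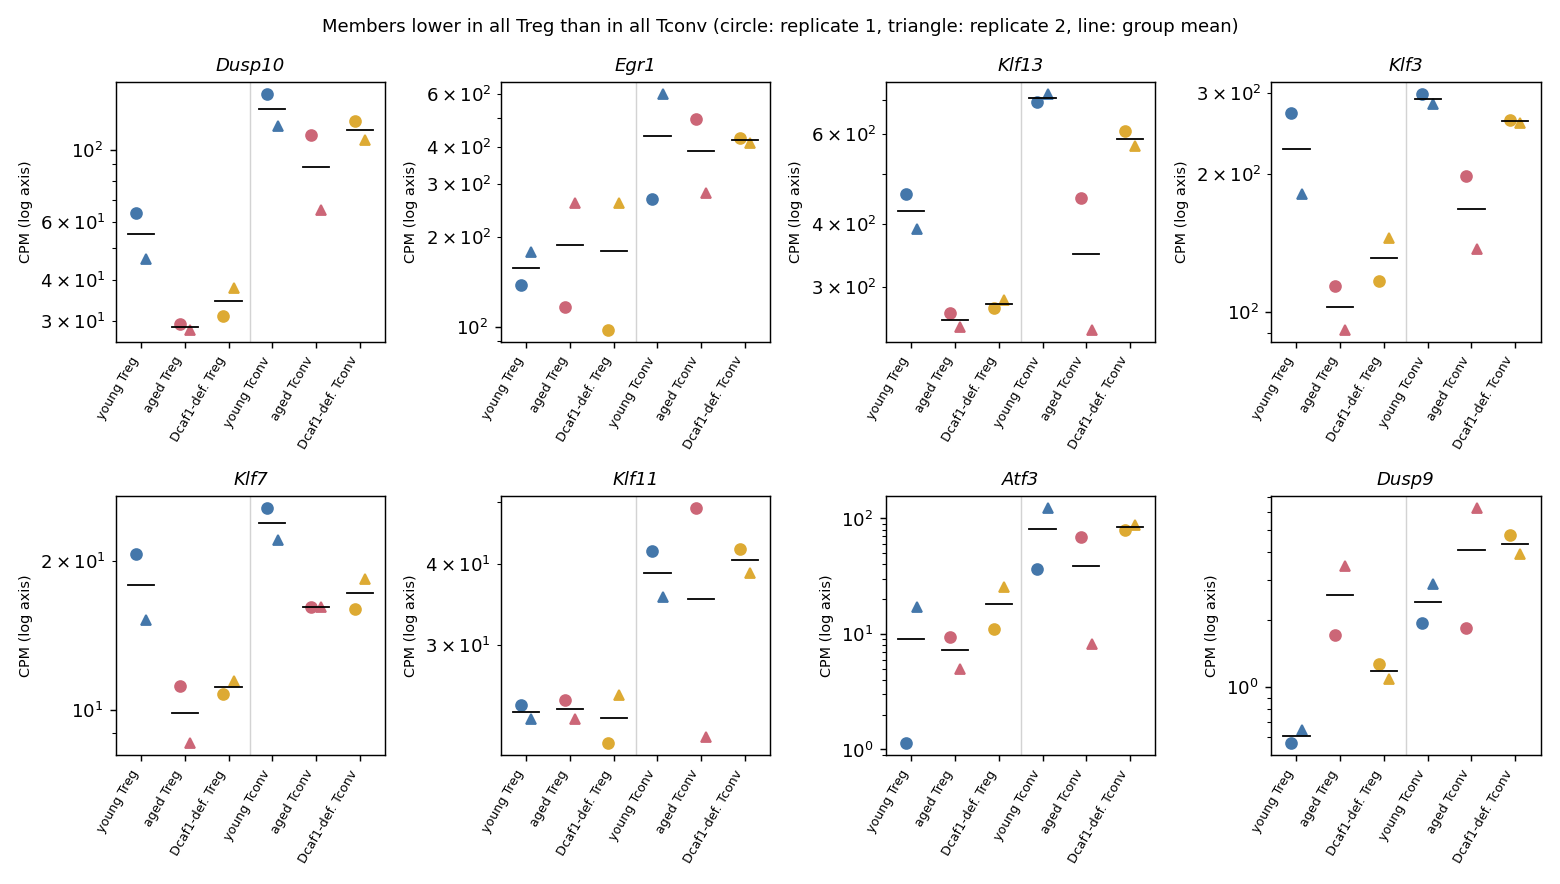
CPM (log axis) of the 8 members called lower in all Treg than in all Tconv, by group, with a circle for replicate 1, a triangle for replicate 2 and a line for the group mean. Dusp10 and Egr1 separate all 6 Treg from all 6 Tconv libraries, whereas aged Tconv 2 falls among the Treg values for Atf3 and Klf11 and under them for Klf13.

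Dusp4 was the member higher in Treg at the largest level: it was at 35.4 to 63.0 CPM in Treg and 7.57 to 10.3 CPM in young and labelled Tconv, but stood well above these in both aged Tconv libraries (log2 difference 1.37 ± 0.31 SE, edgeR adjusted p 0.0228). In the young groups alone the log2 difference was 2.59 (SE 0.54, edgeR adjusted p 0.084). In young Treg against young Tconv, 0 members and 0.8% of all genes were called by edgeR, and 10 members (18.2%, beside 14.3%) had an unadjusted p under 0.05. DESeq2 called 4 of 55 (Dusp4 higher, Dusp10, Ier3ip1 and Klf13 lower), beside 7.12% of all genes. The edgeR fit called Dusp4, Dusp10 and Klf13 without either aged Tconv library, and it called members without both L3 libraries too. More of all genes were also called in these fits. Both young Treg libraries lay below both young Tconv libraries for 23 members (41.8%, beside 24.9%) and above them for 8 (14.5%, beside 24.4%). Dusp14 was at 3.58 and 2.42 CPM in young Treg against 0.798 and 0.385 CPM in young Tconv (log2 difference 2.32 ± 0.76 SE, edgeR adjusted p 0.239).

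The 2 other members called higher in Treg moved, over the Treg libraries, with macrophage, erythroid and neutrophil transcripts alike. Klf15, a metabolic regulator, was in Treg at 0.141 and 2.34 CPM (young), 6.09 and 0.322 CPM (aged) and 8.05 and 9.403 CPM (labelled), and in Tconv at 0 to 0.927 CPM (edgeR adjusted p 0.0256). Aged Tconv was at 0, so no fold is given. The summed macrophage markers given above fell in the same order over the 6 Treg libraries as Klf15. Dusp3 was in Treg at 3.53 and 14.5 CPM (young), 18.1 and 11.6 CPM (aged) and 19.1 and 20.6 CPM (labelled), again in that order, and in Tconv at 3.05 to 14.8 CPM (log2 difference 1.30 ± 0.37 SE, edgeR adjusted p 0.0429), and the log2 difference was 0.84 without young Treg 2. Zfp366 and Atf6 followed it as well in Treg: Zfp366 was at 0.141 and 12.1 CPM (young), 17.6 and 0.598 CPM (aged) and 20.3 and 26.4 CPM (labelled). Atf6, a sensor of endoplasmic reticulum stress, was at 47.5 and 122.6 CPM (young), 143 and 99.1 CPM (aged) and 152.5 and 157 CPM (labelled). In labelled against young Treg the log2 fold changes were 1.14 (SE 0.63, edgeR adjusted p 0.285) for Dusp3 and 1.93 (SE 1.69, edgeR adjusted p 0.478) for Zfp366. In labelled against young Tconv, Atf6 was at 107 and 113 against 38.1 and 66.7 CPM (log2 fold 1.07 ± 0.46 SE, edgeR adjusted p 0.495). In Tconv, aged Tconv 2 had 140 CPM of Atf6 and 14.8 of Dusp3 at 75.9 CPM of summed macrophage markers. Over the 6 Treg libraries the erythroid marker sum (10.8 to 5010 CPM) and the neutrophil sum (0.283 to 539 CPM) had the order of the macrophage sum. These cell types cannot be told apart here, and their part in these results was not tested.

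**Figure D5:**
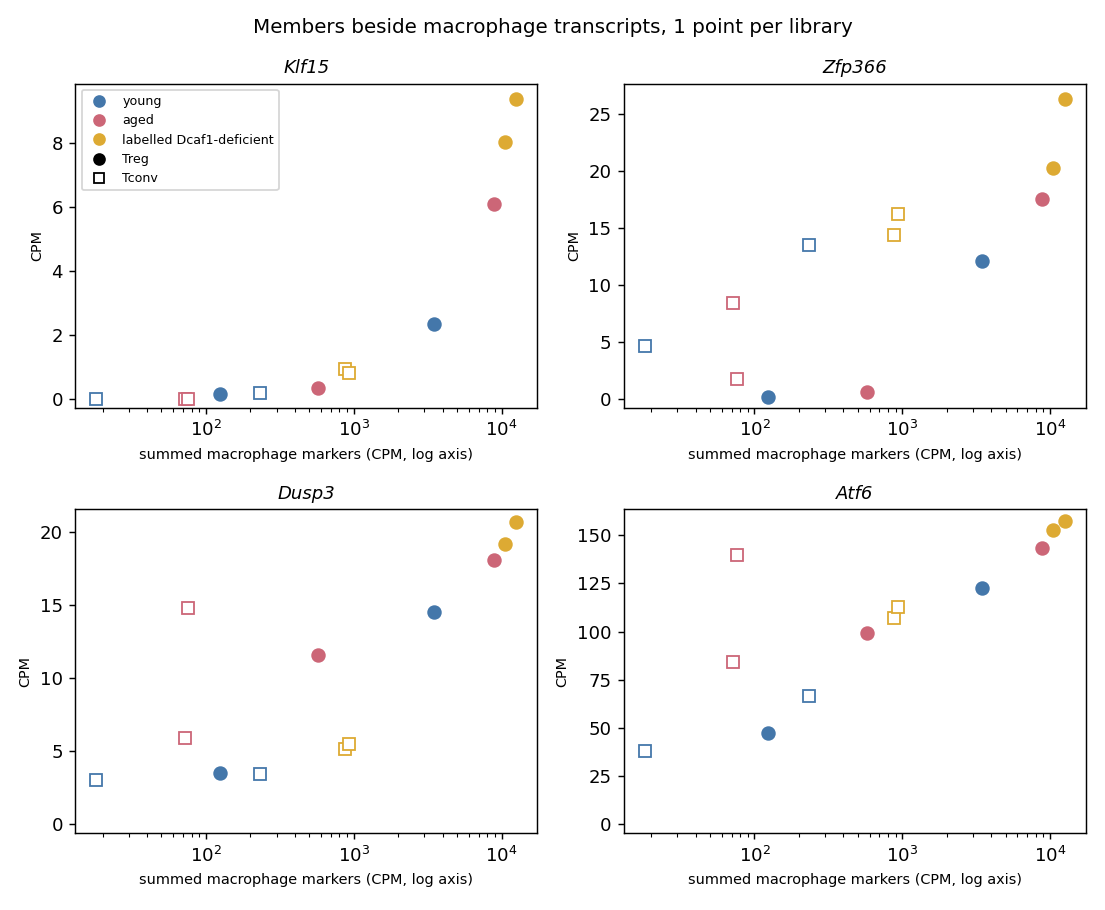
CPM of Klf15, Zfp366, Dusp3 and Atf6 (y axes) beside the summed CPM of 8 macrophage markers (x axes, log), with 1 point per library, filled circles for Treg and open squares for Tconv. In the 6 Treg libraries all 4 genes are higher where the macrophage sum is higher. The erythroid and neutrophil sums, not drawn, rank these 6 libraries in the same order. Aged Tconv 2 is the highest Tconv point for Atf6 and Dusp3, at a macrophage sum of 75.9 CPM.

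Libraries labelled Dcaf1-deficient gave 0 called members in either cell type. In labelled against young Treg, 0 members and 0% of all genes were called by edgeR, with 14 members (25.5%, beside 24.8%) at an unadjusted p under 0.05. Both labelled Treg libraries lay above both young ones for 14 members (25.5%, beside 35.2%) and below them for 26 (47.3%, beside 36.9%). Beside these, 9 of 9 T cell markers and 5 of 5 Treg markers had a lower level in labelled than in young Treg (median log2 fold -0.90 and -0.95), while 8 of 8 macrophage, 5 of 5 erythroid and 6 of 6 neutrophil markers had a higher one (medians 2.69, 3.90 and 4.97), none of them called; their part in the values of the members was not tested. DESeq2 called 4 of 54 members, all lower (Atf7ip, Dusp2, Klf3 and Zfp36l2), beside 13.8% of all genes. The edgeR fit called Dusp2 and Klf13 without either aged Tconv library. It also called members without both L3 libraries and without young Treg 2 and aged Treg 1. In these fits some of all genes were called as well, so they single out no result about the members. In labelled against young Tconv, 0 members and 0% of all genes were called by edgeR, with 7 members (12.7%, beside 10%) at an unadjusted p under 0.05. Both labelled Tconv libraries lay above both young ones for 11 members (20%, beside 34.2%) and below them for 17 (30.9%, beside 32.7%). DESeq2 called Dusp2 and Zfp36l2, beside 2.54% of all genes. The edgeR fit of the 4 Tconv libraries alone called 4 of 53 members, beside 12.2% of all genes. As given above, these labelled and young Tconv libraries also differ in Xist, so label and sex cannot be told apart.

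Dusp2 had the smallest adjusted p of the set in each of these comparisons, or shared it (with Dusp8, in Treg). It was at 240.3 and 222 CPM in labelled Treg against 483 and 364 CPM in young Treg (log2 fold -0.87 ± 0.15 SE, edgeR adjusted p 0.131), and at 256 and 234.5 CPM in labelled Tconv against 528 and 533 CPM in young Tconv (log2 fold -1.11 ± 0.15 SE, edgeR adjusted p 0.113). Both labelled libraries were below both young ones in each cell type. The aged and the labelled libraries are compared with the same young libraries, so these comparisons are not independent of those with age. Zfp36l2 was at 913.5 and 671 CPM in labelled Treg against 2232 and 1267 CPM in young Treg (log2 fold -1.14 ± 0.34 SE, edgeR adjusted p 0.139). In the same Treg comparison the medians were -0.90 for the T cell markers and -0.95 for the Treg markers. In labelled Tconv, Zfp36l2 was at 1159 and 1111 CPM against 2513 and 2290 CPM in young Tconv (log2 fold -1.08 ± 0.34 SE, edgeR adjusted p 0.426). There the median of the T cell markers was 0.07 and that of the macrophage markers 2.99. The part of cell type transcripts in these values was not tested in either cell type.

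Of the 7 members that rose in aged Tconv, 0 were called in labelled Tconv. There 0% of all genes were called, so this count says nothing about these members in particular. Nr4a2 was at 8.39 and 7.09 CPM in labelled and 11.03 and 9.57 CPM in young Tconv (log2 fold -0.41 ± 0.59 SE, edgeR adjusted p 0.807), and at 5.63 and 5.67 CPM in labelled Treg (log2 fold -1.13 ± 0.59 SE, edgeR adjusted p 0.259). Ier5l was at 0.342 and 0.193 CPM in labelled Tconv (log2 fold -1.03 ± 0.82 SE, edgeR adjusted p 0.658), Dusp4 at 10.3 and 7.57 CPM, Dusp18 at 0.537 and 0.482 CPM, Klf4 at 34.8 and 35.4 CPM and Nfkbib at 54.2 and 46.4 CPM, the last 4 overlapping the young libraries. Dusp14, at 2.34 and 2.17 CPM, was above both young Tconv libraries without being called (log2 fold 1.91 ± 0.77 SE, edgeR adjusted p 0.477). So was Ier3, which had not been called with age either, at 10.5 and 10.3 CPM (log2 fold 1.52 ± 0.95 SE, edgeR adjusted p 0.594). Dusp7 was at 48.8 and 47.4 CPM in labelled Tconv (log2 fold -0.74 ± 0.24 SE, edgeR adjusted p 0.445). In labelled Treg, Fosl2 was at 32.5 and 32.2 CPM (log2 fold 1.02 ± 0.42 SE, edgeR adjusted p 0.193), and Nfkbiz at 148 and 175 CPM (log2 fold -1.02 ± 0.43 SE, edgeR adjusted p 0.196). Klf3 was at 116 and 145 CPM in labelled Treg (log2 fold -0.79 ± 0.24 SE, edgeR adjusted p 0.139). Dusp8, a phosphatase of JNK and p38, was at 1.41 and 1.59 CPM in labelled Treg and 0.0471 and 0.13 CPM in young Treg, levels of few counts. It would not have reached the count minimum without the labelled Treg libraries, nor without all Tconv libraries. The difference between the label effects of Treg and Tconv was called for 0 members by edgeR (0% of all genes) and by DESeq2, and 1 member had an unadjusted p under 0.05 (1.82%, beside 2.74%). That member was Dusp8, so nothing is read from it.

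Activation-response genes outside the symbol rule moved both ways with age. Their list was chosen with earlier results of these data known, so its counts and median are a description only. Of 39 such genes, 26 were tested, and in aged Tconv 6 were higher and 2 lower (beside 6.38% and 2.47% of all genes). The median log2 fold change was 0.63, beside -0.00 over all genes. Bhlhe40, an activation-induced repressor, was at 76.4 and 125 CPM in young against 777 and 1070 CPM in aged Tconv, and Icos, a costimulatory receptor, at 139.9 and 150.3 against 439.8 and 575 CPM. Tnfrsf4 (OX40), Irf4, Spry1 and Rilpl2 also rose, while Myc, the growth regulator, at 113 and 115.5 CPM in young against 56.8 and 64.9 CPM in aged Tconv, and Cd40lg, the helper ligand, at 239.9 and 239 against 162 and 123.5 CPM, fell. In all Treg against all Tconv, 5 of the 26 were higher (Myc, Irf4, Tnfrsf4, Icos and Cish) and 5 lower (Ppp1r15a, Il2, Mafk, Cd40lg and Per1), with a median of 0.07, beside 11.5% of all genes higher and 11% lower. As with the members, the calls in aged Tconv were lost without either young Tconv library, where 0 of all genes were called, and 3 of 8685 genes were called in the 4 Tconv libraries alone. The Treg markers Foxp3, Ikzf2 and Ctla4 were higher in the same aged libraries, whereas Il2ra overlapped with the young ones. The part of Treg transcripts was not tested.

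Of 36 genes that the members act on or with (NF-kappaB subunits, MAP kinases and their kinases, AP-1 partners and targets of Klf2), 29 were tested. This list, too, was chosen with earlier results of these data known and is given as a description. In aged Tconv 4 were higher and 0 lower (beside 6.38% and 2.47% of all genes): Bcl3, Map2k3, Batf and Maf. These calls, too, were lost without either young Tconv library. Batf, the AP-1 partner of activated T cells, was at 43.5 and 40.9 CPM in young against 180.2 and 319.7 CPM in aged Tconv, and Maf at 59.3 and 53.02 against 372 and 667 CPM. The median log2 fold change of the 29 was -0.04. In all Treg against all Tconv, Mapk9 and Rxra were higher and Ikbkb, Map2k7 and Ctbp1 lower (beside 11.5% of all genes higher and 11% lower), with a median of -0.06. Rxra, a nuclear receptor that pairs with many others, was in Treg at 45.3 and 98.8 CPM (young), 190.0 and 99.7 CPM (aged) and 218 and 249.5 CPM (labelled). It was higher where the summed macrophage, erythroid and neutrophil markers were higher. The exceptions were young Treg 2 and aged Treg 2, which were within 1 CPM of each other. The part of transcripts of these cell types was not tested. In aged or labelled against young Treg and in labelled against young Tconv, 0 genes of either list were called by edgeR.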

How the data were processed

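RNA was sequenced from 12 libraries in 6 groups of 2, assigned by sample title. The authors deposited estimated counts per gene, made with Salmon 0.9.1 per the submitters' processing notes and brought to gene level by tximport, as its file is named, on build mm10; the transcript annotation is not given in the sources used here. The authors also deposited log2 values made with DESeq2, per the submitters' processing notes, whose transform is not stated.

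Estimated counts were rounded and tested in R 4.3.3 with edgeR 4.0.16 (TMM, filterByExpr, quasi-likelihood, 6 group means, 6 residual degrees of freedom, 9495 genes), with Benjamini-Hochberg adjustment within each of 8 comparisons at 0.05. Totals of 18358477 to 26852448 put the worth of 3 counts over both libraries of a group at 0.0574 to 0.0768 CPM. Exon lengths and gene positions came from GENCODE M21, promoters from RefSeq. The fit was tested on simulated data. These were independent counts without effects of other cell types, sex or tag, so that test says nothing about such effects here. Alternatives were RLE factors, no filter, DESeq2 1.42.0, own groups only, a replicate block, a tag term, limma 3.58.1 on the log2 values, a fold minimum, and leaving out libraries singly or in 2 pairs.

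The members and lists were chosen with earlier results of these data known. Named were Nr4a2 and Dusp2, every called member, up to 3 largest rises and falls per comparison of groups (mean of at least 4 CPM, no overlap) and the highest member of each class by CPM. Fos, Egr2, Nr4a3, Dusp8, Dusp16, Zfp36 and other members outside this rule were chosen after their values were seen.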

Additional observations from a re-analysis of the deposited data

How the results depend on the processing

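Counts of called members moved with the libraries fitted and the test. For aged against young Tconv, 10 members were called; the count was 22 with DESeq2, 0 with the 4 Tconv libraries alone, 4 with a tag term and 19 without young Treg 2 and aged Treg 1, and 0 to 21 when 1 library was left out. For all Treg against all Tconv, 11 were called; the count was 1 with a tag term, 21 without both L3 libraries, 7 with a log2 fold change of at least 1, and 1 to 16 when 1 library was left out. In young Treg against young Tconv, 0 became 4 with DESeq2 and 7 without both L3 libraries (0 to 3 with 1 library left out). In aged against young Treg, 0 became 10 with DESeq2 and 4 without young Treg 2 and aged Treg 1 (0 to 4). In labelled against young Treg, 0 became 4 with DESeq2, 9 without both L3 libraries and 20 without young Treg 2 and aged Treg 1 (0 to 2). In labelled against young Tconv, 0 became 2 with DESeq2, 4 with the Tconv libraries alone, and 1 without both L3 libraries or without young Treg 2 and aged Treg 1. For the difference between the age effects, 0 became 1 with DESeq2 (0 to 1). Where leaving out libraries added calls among the members, more of all genes were called too. Some of these fits hold fewer libraries, and the cause of these moves was not tested.

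Of 71 fold changes checked, the sign changed in the following. Nr4a2 in young Treg against young Tconv became -0.72 without young Treg 1 (range -0.72 to 0.84 with 1 library left out), and its difference between label effects became 0.27 (range -1.30 to 0.27). Dusp2 in all Treg against all Tconv, -0.05, became 0.0349 with a tag term, 0.0129 without young Treg 2, 0.0127 without labelled Tconv 1 (range -0.12 to 0.0129), and 0.0488 without young Treg 2 and aged Treg 1. The replicate numbers were not taken to pair the libraries, since correlations of same-numbered deviations ran from -0.66 to 0.68; between Treg and Tconv they were 0.68 (young), 0.27 (aged) and 0.04 (labelled), and pairing within a condition was not fitted. A replicate block gave 12 members in aged Tconv (beside 8.91% of all genes) and 11 in all Treg against all Tconv (beside 20.2%). The fit of the compared groups alone was not run for all Treg against all Tconv, which uses all libraries. Members under about 1 CPM, such as Dusp8 and Ier5l in young cells, rest on few counts.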
